A study of Mus musculus with 67 samples.

Results

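The genes described here encode the factors that start, carry forward and end translation, and a few proteins that regulate them, measured as mRNA in the cerebral cortex of 67 C57BL/6 mice. They were chosen by name: a probe was taken if the platform annotation gave it exactly 1 gene symbol and that symbol began with Eif, Eef, Etf1, Gspt, Paip or Pabp, with Eif2ak4 left out, and 1 probe was kept per gene, the one with the highest mean over all arrays. This gave 34 genes, out of 4209 genes named by a probe with 1 symbol, from 45 probes. A further 10 probes carried such a symbol together with that of another gene (Eef2 or Eif5b with Naglu, Prim1, Psip1, Strap or Trim3) and were set aside, so the elongation factor Eef2 and the subunit-joining factor Eif5b are not described. 

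Each array held labelled cDNA from 1 mouse. AL mice ate regular feed freely until they were killed and were studied at 17-21 days (2 males, 3 females), 33-44 days (3 males, 2 females) and 6, 16 and 24 months (5 males and 5 females per age). CR mice ate regular feed until 13 weeks of age and then 90%, 75% and finally 60% of it as fortified feed, so that a 6 months CR mouse had been restricted for only part of its life, and were studied as 4 males and 5 females at 6 months, 5 and 5 at 16 months, and 3 and 5 at 24 months. The age in days ran from 169 to 194 at 6 months, 472 to 499 at 16 months and 673 to 743 at 24 months. At 24 months all 3 CR males were 673 days old and the CR females 703 to 743. The AL males were 714 to 743 days old and the AL females 704 to 733. Differences of sex or diet that rest on these CR males cannot be told apart from age. All mice were of the same inbred strain with no transgene named, and no CR mice were studied before 6 months. The deposited values are z-scores: each array was scaled so that its values average 0 with an SD of 1, and a z of 1 thus means 1 SD above the average probe of that array, and differences below are in these units and not fold changes.

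Translation of most mRNAs starts when eIF4E binds the cap, the scaffold eIF4G and the helicase eIF4A join it, and the small ribosomal subunit arrives with eIF3, eIF1A and the initiator tRNA held by eIF2. eIF2B recharges eIF2 with GTP, kinases such as PERK and HRI block that step under stress, and the 4E-binding proteins hold eIF4E back. eEF1A then delivers each aminoacyl-tRNA, eEF2 moves the ribosome along, and the release factors eRF1 and eRF3 end the chain, while the poly(A)-binding protein links the tail of the mRNA to its cap. In the brain these steps are known for their part in synaptic plasticity, where new protein is made near synapses.

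Many mRNAs of the translation machinery are known to begin with a C and a run of pyrimidines. Genes of that machinery can also carry the hexamer CACGTG near the start of transcription. Windows around the start are therefore shown for the members on which the results below turn. Eef1a1 is added as a textbook case of the pyrimidine start. The windows come from RefSeq on GRCm38.p6, which listed at least 1 start for 25 of the 34 members. Each line runs 5′ to 3′ on the strand that reads like the mRNA. Eef1a1, Eif1ad and Eef2k are given from 40 bases before the annotated start to 20 after it, with the most upstream start used where several were listed (Eef2k has 3), and Eif4a1 is given once in that way and once around the hexamer. Capitals mark a C followed by at least 4 pyrimidines that begins within 5 bases of the start, or the hexamer CACGTG.
Eef1a1, chr9:78481705-78481764, minus strand: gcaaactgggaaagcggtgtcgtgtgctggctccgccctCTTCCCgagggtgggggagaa
Eif1ad, chr19:5366773-5366832, plus strand: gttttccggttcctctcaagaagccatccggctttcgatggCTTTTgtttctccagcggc
Eef2k, chr7:120842791-120842850, plus strand: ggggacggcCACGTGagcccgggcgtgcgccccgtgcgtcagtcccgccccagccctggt
Eif4a1 at its start, chr11:69672404-69672463, minus strand: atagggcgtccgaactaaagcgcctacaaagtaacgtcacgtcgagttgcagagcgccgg
Eif4a1 upstream, chr11:69672580-69672639, minus strand: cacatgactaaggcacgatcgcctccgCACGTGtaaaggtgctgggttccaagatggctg
Counting a gene when any of its listed starts holds the motif, the pyrimidine run was found in 6 of the 25 members with a window (Eef1a1, Eif1ad, Eif2ak1, Eif2ak3, Eif2b2 and Eif3b), which is 24.0% against 21.2% of all 27025 genes with a window. CACGTG, which reads the same on both strands, was found within the 300 bases from 250 before to 50 after the start of at least 1 listed start in 5 members (Eef2k, Eif3a, Eif4a1, Eif4e and Eif5a), 20.0% against 8.1% of all genes. At the most upstream start alone, the pyrimidine run was found in the same 6 members (24.0% against 18.5% of all genes) and the hexamer in 3, Eef2k, Eif3a and Eif4a1 (12.0% against 7.2%). The 2 motifs do not overlap in the lines above, and no member was found with both. Counted from 0 at the start, the hexamer begins at position -31 in Eef2k and at -189 in Eif4a1. These matches describe the letters of the windows and nothing about which factors act there.

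Several features of the arrays touch the values below. Of the variance, 48.1% lay on a principal component that followed array number, with the 22 arrays numbered 46 and above on one side and the 45 arrays before them on the other (an R squared of 0.945 with that split). The labels do not say what changed at array 46. No 17-21 days array and 2 of the 5 arrays of 33-44 days were numbered 46 or above, while the adult groups each held 2 to 4 such arrays. A pair of arrays labelled as different mice, 16 months AL male replicate 2 and female replicate 2, held identical values at 4312 of 8448 probes and differed by at most 0.06 at any of the 34 members, and they were counted as 1 sample wherever males and females are pooled into a group value, which leaves n = 9 at 16 months AL. The fits kept both arrays, so a fitted difference can depart from the difference of the printed means. Fitted SEs, intervals and p-values that involve 16 months AL count the pair as 2 mice where n = 9 is printed, and may be too small. The difference without the pair is given where it is over 1.5 times smaller or larger. Each probe's deviation was taken from its mean over the arrays on the same side of number 46, not from its group mean. Neighbouring probes tended to deviate in the same direction (autocorrelation of 0.373 at the next probe). The mean difference of the neighbouring probes is therefore given beside the age differences named below and beside the diet differences at each age. The description of 1 of the 24 months AL males names a juvenile, against its title and its other labels, and the title was followed. The replicates are labelled as separate mice, which is in doubt for the near-identical pair. Precision is limited by their number, by the array-number split and by the shared deviation of neighbouring probes.

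The members spread over the range of the filter in the way all probes did: 16 of 34 (47.1%) had a mean z above 0, against 49.3% of all probes, and their median mean z was -0.029 against -0.015. A probe's level depends on its length and its labelling as well as on the mRNA, so these levels place a probe on its array and do not rank the genes. Eif1a, which scans for the start codon, had a mean z of 1.84 (from 1.40 to 2.20 over the 67 arrays), the heme-regulated eIF2 kinase Eif2ak1 (HRI) 1.53, Eef1g, a subunit of the exchange factor of eEF1A, 1.22, Eif4g3, a cap scaffold, 1.13 and the release factor Gspt1 (eRF3a) 1.11. Eef1a1 itself stood at 0.48 and the cap-binding protein Eif4e at -0.40. At the low end stood Eif2s2, the beta subunit of eIF2, at -2.03 and the 4E-binding protein Eif4ebp3 at -1.68. Within groups the SD of a member was 0.185 at the median, against 0.210 for all probes, and ran from 0.106 for Eif2d, which can deliver the initiator tRNA without eIF2, to 0.488 for Eif3d, the eIF3 subunit that can bind a cap.

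The SD within groups was taken without removing the array-number split, so it includes any shift with array number. That the steadiest members and the least steady ones differed in this shift is thus partly built in. Eef1b2, another subunit of the exchange factor of eEF1A, ran from -0.26 to 0.16 over all 67 arrays, and its mean differed by -0.03 between arrays 46 and above and the arrays before. Eif3d was 0.68 higher on the arrays numbered 46 and above, and it was higher there in all 14 groups that held both kinds of array. Paip2b, a repressor of the poly(A)-binding protein, was 0.56 higher, Eif6, which keeps the ribosomal subunits apart, 0.55 higher and Eef1akmt1, a methyltransferase of eEF1A, 0.52 higher. Eif4g3 was 0.69 lower, in 14 of 14 groups. Over the 34 members, 22 were higher and 12 lower on the later arrays, and the median size of the shift was 0.180 against 0.223 for all probes, and the plot of the shift by member shows this range.

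**Figure D1:**
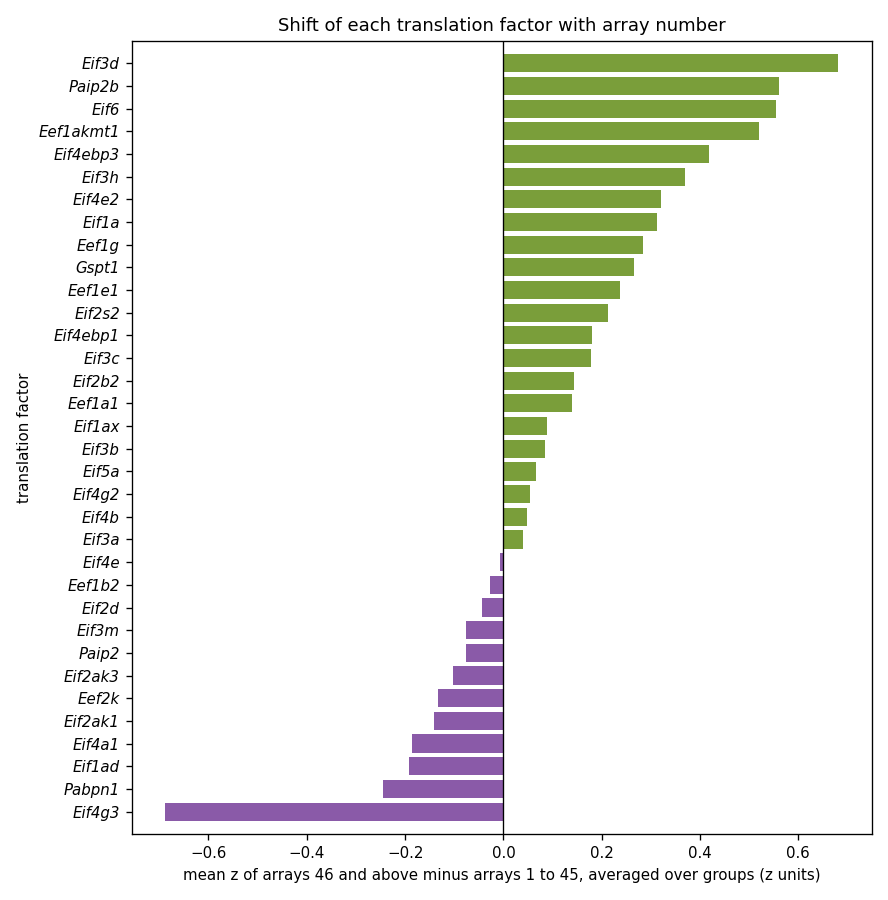
Mean z of the arrays numbered 46 and above minus that of arrays 1 to 45 (horizontal axis, z units, averaged over the groups that hold both) for each of the 34 members (vertical axis), with 1 bar per member. Bars run from -0.69 for Eif4g3 to 0.68 for Eif3d, and 22 of 34 are positive.

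For 6 members more than 1 probe was measured, and the probes of a gene did not always move together. Over the 67 arrays, which share their array-number split, the used probe of Eef1g correlated with its other 4 probes at r = 0.785, 0.749, 0.042 and -0.153, and that of Eef1a1 with its other probes at 0.600 and 0.278. The 2 probes of Gspt1 ran against each other at r = -0.740, with shifts of 0.27 and -0.31 at array 46. The used probe of Eif4g2, which encodes an eIF4G relative that lacks the eIF4E-binding part, correlated at 0.044 and -0.239 with its other probes, that of Eif4e at -0.021 and that of Eif1ax at 0.148. A level given below for Gspt1, Eif4g2, Eif4e, Eif1ax or Eef1g is therefore that of the named probe, and the other probes of the gene did not follow it throughout.

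**Figure D2:**
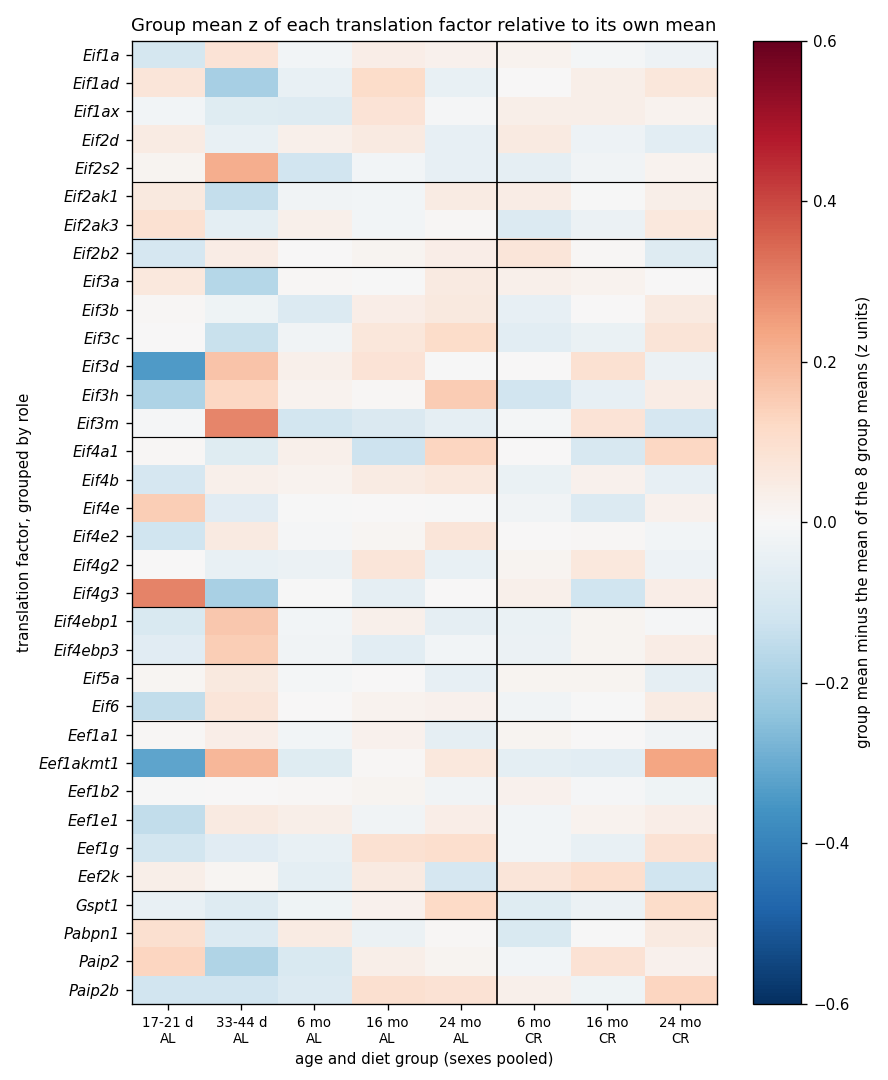
Mean z of each of the 34 members (rows, ordered by role, with lines between roles) in the 8 groups of age and diet (columns, sexes pooled), as the difference from the member's own mean over the 8 groups (colour, z units). The strongest colours lie in the 17-21 days column, at Eif3d, Eef1akmt1 and Eif4g3, whose shifts at array 46 were 0.68, 0.52 and -0.69.

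Ages and diets were compared because the study asked how age, sex and caloric restriction change gene expression in this tissue. Each comparison averaged the sexes equally and was tested with limma over all 8448 probes, a member passing where its Benjamini-Hochberg adjusted p was under 0.05. No member passed in any of the 13 comparisons. The count with an unadjusted p under 0.05, the count in a fit that adds the array-number split and the run of array numbers as blocks (both blocks), and the count under part of the study's own selection (an unadjusted p under 0.05 together with a z-ratio of 1.5 or more and a positive mean z) are given for each. Behind them stands the share of all probes called in the same way.

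Between 17-21 days and 33-44 days, both juvenile ages, the members with the smallest p all had lower means at the later age: Paip2, a repressor that pulls the poly(A)-binding protein away from the cap scaffold, Eif3a, the largest subunit of eIF3, and Eif1ad, a protein with an eIF1A-like domain. Of the 34 members 0 passed, against 0.0947% of all probes, 7 had an unadjusted p under 0.05 against 14.0%, 0 passed with both blocks against 0.249%, and 0 met the study's selection against 0.651%. The members thus held 7 of 34 where 14.0% of probes lay, with 17 differences above 0 and 17 below, and a median of 0.005 against 0.003 for all probes.

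Paip2 had z values of 0.10 and -0.07 in the males and -0.13, -0.27 and 0.11 in the females of 17-21 days. At 33-44 days it had -0.15, -0.33 and -0.52 in the males and -0.20 and -0.60 in the females. All 5 of the later mice lay below the mean of the younger ones, but the ranges overlapped, and the lowest values, -0.52 and -0.60, came from the 2 arrays numbered 46 and above. The difference was -0.33 (SE 0.090, 95% interval -0.51 to -0.15, adjusted p = 0.0900), it was -0.35 in males and -0.30 in females, and among the arrays before number 46 it was -0.18. The neighbouring probes on the filter differed by a mean of -0.30, and after their deviation was taken out with both blocks the difference of Paip2 was -0.047. Without 33-44 days AL male replicate 2 the adjusted p was 0.0465 (2.53% of all probes then passed), without 17-21 days AL female replicate 2 it was 0.0352 (0.852%) and without 33-44 days AL female replicate 1 it was 0.0106 (5.22%). In the last case Eif2ak1 passed as well, with a difference of -0.35 and an adjusted p of 0.0415, and those 2 of 34 members lie near the share of all probes.

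Eif3a went from -0.62 ± 0.202 (SD, n = 5) to -0.85 ± 0.153 (n = 5), a difference of -0.25 (adjusted p = 0.259), with neighbouring probes at -0.22. It was -0.37 without 17-21 days AL male replicate 1 and -0.12 without male replicate 2. Eif1ad went from 0.17 ± 0.132 to -0.10 ± 0.323 (n = 5 each), a difference of -0.29 (adjusted p = 0.305). Its 3 arrays of 33-44 days before number 46 read 0.16, 0.18 and 0.06, inside the range of the younger mice, and the 2 later ones read -0.48 and -0.42, so that among the arrays before number 46 the difference was -0.060. Its neighbours differed by -0.23, and -0.047 remained after correction for them with both blocks. Eif4g3 and Eif3d had the largest differences in size, -0.54 and 0.53, in the direction of their shifts at array 46, and with adjusted p values of 0.318 and 0.390. With both blocks the differences were -0.21 and 0.083, and the neighbouring probes differed by -0.28 and 0.40.
By role, the eIF2 kinases Eif2ak1 and Eif2ak3 (PERK) stood at -0.22 and -0.18, the 4E-binding proteins Eif4ebp1 and Eif4ebp3 at 0.25 and 0.22, and the 3 genes of poly(A) binding from -0.33 to -0.01. Eif4ebp1 and Eif4ebp3 lie next to each other on the filter, so their values are not separate readings of the role. The eIF3 subunits spread from -0.25 for Eif3a to 0.53 for Eif3d. Blood markers moved in the same comparison: the summed z of the 6 measured ran from 1.04 to 1.65 (median 1.49) at 17-21 days and from -0.27 to 1.66 (median 0.13) at 33-44 days, and the hemoglobin gene Hbb-y passed, with a difference of -0.42 (adjusted p = 0.0265). The part of blood in the members' values was not tested. In tissue RNA, fewer cells of a type and less RNA per cell cannot be told apart.

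From 33-44 days to 6 months, the members with the smallest p were Eif2s2, Eif3m, a subunit of eIF3, and Eif3a. None passed (0% of probes did, also with both blocks), 3 members had an unadjusted p under 0.05 against 5.31% of probes, and 0 met the study's selection against 0.639%. Eif3m read 0.38, -0.73 and -0.58 in the males and -0.68 and -0.70 in the females of 33-44 days, and between -1.0 and -0.74 (median -0.865, n = 10) at 6 months. These ranges did not overlap, by 0.01, and 1 male array of 33-44 days stood 0.96 above the next. The difference was -0.37 (SE 0.157, adjusted p = 0.875), with neighbours at -0.11, and it was -0.19 without that array. Eif2s2 read -1.11, -2.19 and -1.88 in the males and -2.16 and -1.62 in the females of 33-44 days, and between -2.40 and -1.86 (median -2.17, n = 10) at 6 months, a difference of -0.31 (adjusted p = 0.875), with neighbours at -0.16. The same male gave its highest value, and without it the difference was -0.16. Eif3a was -0.67 ± 0.143 (n = 10) at 6 months, a difference of 0.18 (adjusted p = 0.875), with the 10 adult arrays all above the mean of the 5 younger ones and neighbouring probes at 0.15. It was 0.092 without 33-44 days AL female replicate 2.

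From 17-21 days to 6 months, 0 members passed (0% of probes, also with both blocks), 1 had an unadjusted p under 0.05 against 3.46% of probes, and 0 met the study's selection against 1.15%. That member was Paip2, which was between -0.47 and -0.03 (median -0.26, n = 10) at 6 months, with 9 of 10 arrays below the mean of the 17-21 days mice. The difference was -0.23 (SE 0.077, 95% interval -0.39 to -0.078, adjusted p = 0.815), and it was -0.22 among the arrays before number 46. Here the neighbouring probes differed by -0.14, and -0.12 remained after their deviation was taken out with both blocks. Eef1e1, a scaffold protein that also sits in the complex of aminoacyl-tRNA synthetases, went from -0.43 ± 0.233 (n = 5) to -0.25 ± 0.109 (n = 10), and Eif3d from -1.20 ± 0.415 to -0.83 ± 0.392, with adjusted p = 0.815 for both and neighbours at 0.15 and 0.27. The fitted difference of Eif3d was 0.43, with 0.26 among the arrays before number 46 and 0.11 with both blocks. It was 0.69 in males and 0.17 in females. That of Eef1e1 was 0.19, with 0.13 among the earlier arrays and 0.13 with both blocks.

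Among the comparisons of adult AL mice the smallest p of a member lay between 16 and 24 months, in the helicase gene Eif4a1. Of the members 0 passed (0% of probes), 4 had an unadjusted p under 0.05 against 6.57% of probes, 1 passed with both blocks against 1.09%, and 2 met the study's selection (Eif4a1 and Eef2k) against 2.04%. At 16 months Eif4a1 ran from -0.12 to 0.46 (median 0.10, n = 9), and at 24 months from 0.28 to 0.53 (median 0.39, n = 10). All 10 of the 24 months arrays lay above the mean of the 16 months arrays, 2 of them above its highest array, and the old mice were also closer together, with an SD of 0.077 against 0.163. The difference was 0.26 (SE 0.082, 95% interval 0.091 to 0.42, adjusted p = 0.607), 0.22 in males and 0.29 in females, 0.20 among the arrays before number 46 and 0.34 among the others. With both blocks, in a fit that also counted the near-identical pair as 2 mice, the adjusted p was 0.00886 at the same difference. The neighbouring probes differed by a mean of 0.16, and once their deviation was taken out, with both blocks, 0.095 remained (adjusted p = 0.331).

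Eef2k, the kinase that phosphorylates eEF2 and so slows elongation, ran from 0.21 to 0.65 (median 0.40, n = 9) at 16 months and from -0.02 to 0.46 (median 0.335, n = 10) at 24 months in AL mice. Of the old mice 9 of 10 lay below the mean at 16 months, and 4 below its lowest array. The difference was -0.17 (SE 0.075, adjusted p = 0.694), with neighbouring probes at -0.16, and -0.011 remained after correction for them with both blocks. Eif2d went from 0.305 ± 0.132 (n = 9) to 0.204 ± 0.109 (n = 10), a fitted difference of -0.12 (adjusted p = 0.670) that was -0.075 without the near-identical pair, and its neighbours differed by -0.0065.

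The CR mice of 16 and 24 months are other animals on other arrays, and in them Eef2k and Eif4a1 had the smallest p. Eef2k ran from 0.15 to 0.78 (median 0.48, n = 10) at 16 months and from 0.12 to 0.51 (median 0.175, n = 8) at 24 months, a difference of -0.24 (SE 0.082, 95% interval -0.40 to -0.077, adjusted p = 0.999), which was -0.44 in males and -0.042 in females. The males of 24 months were 3 mice of 673 days, younger than the females. The neighbours of Eef2k differed by -0.16, and -0.086 remained after correction for them with both blocks. Eif4a1 ran from -0.04 to 0.44 (median 0.135, n = 10) and from 0.19 to 0.54 (median 0.44, n = 8), and all 8 old arrays lay above the mean at 16 months. The difference of Eif4a1 was 0.22 (SE 0.088, 95% interval 0.041 to 0.40, adjusted p = 0.999), 0.23 in males and 0.21 in females. Its neighbours differed by 0.18, and 0.053 remained after the same correction. Neither passed with both blocks (adjusted p = 0.179 for each). In all, 0 members passed (0% of probes, also with both blocks), 2 had an unadjusted p under 0.05 against 4.15%, and these 2 met the study's selection against 1.29%. Eif4g2 had the next smallest p, at a difference of -0.11 (adjusted p = 0.999) with neighbours at -0.079, where its other probes differed by -0.027 and 0.22.

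**Figure D3:**
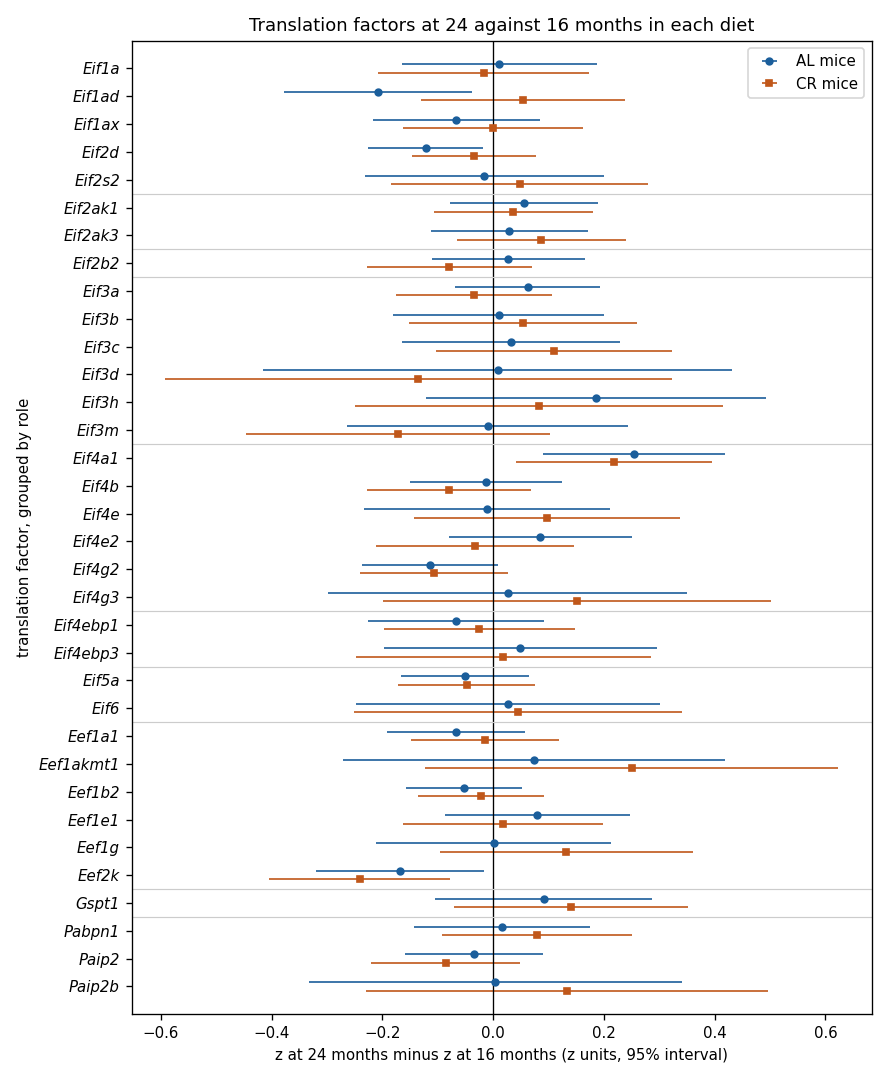
Difference in z between 24 and 16 months (horizontal axis, z units, with 95% intervals from limma) for the 34 members (vertical axis, ordered by role) in AL mice (circles) and CR mice (squares). Eif4a1 lies to the right of 0 in both diets, at 0.26 and 0.22, and Eef2k to the left, at -0.17 and -0.24, while most other intervals include 0.

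Of the 34 members 26 had a difference of the same sign between 16 and 24 months in the 2 diets, which is 76.5% against 65.9% of all probes. Without the near-identical pair it was 24 members, 70.6% against 70.9%. In AL mice Eif1ad ran from -0.02 to 0.76 (median 0.15, n = 9) at 16 months and from -0.12 to 0.32 (median 0.03, n = 10) at 24 months, a difference of -0.21 (SE 0.085, adjusted p = 0.648, neighbours at -0.034), while in CR mice it was 0.132 ± 0.103 (n = 10) and 0.168 ± 0.207 (n = 8), a difference of 0.054 (95% interval -0.13 to 0.24) that was -0.0275 on the arrays numbered 46 and above and -0.0098 after the neighbour correction with both blocks. The difference between the diets in the change was 0.26 (SE 0.125, adjusted p = 1.00). Across this test of diet and age, 0 members passed (0% of probes, also with both blocks), 1 had an unadjusted p under 0.05 against 0.888%, and 1 met the study's selection against 0.260%, Eif1ad in each case. The high end at 16 months AL was the near-identical pair, at 0.75 and 0.77, with the next array at 0.28. Without that pair the AL difference was -0.084 and the difference between the diets 0.14. Eif2d and Eif2b2, the beta subunit of eIF2B, had the next smallest p, at 0.087 and -0.11 (adjusted p = 1.00 for both). Without the pair that of Eif2d was 0.039, and without 24 months CR male replicate 2 that of Eif2b2 was -0.058.

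Between 6 and 16 months AL, 0 members passed (0% of probes, also with both blocks), 2 had an unadjusted p under 0.05 against 3.04%, and 1, Eif1ad, met the study's selection against 0.414%. Eif1ad ran from -0.25 to 0.22 (median 0.08, n = 10) at 6 months, a difference of 0.21 (SE 0.085, adjusted p = 0.999) that was 0.087 without the near-identical pair, with neighbours at 0.12. Paip2 ran from -0.47 to -0.03 (median -0.26, n = 10) at 6 months and from -0.22 to 0.015 (median -0.18, n = 9) at 16 months, and all 9 arrays lay above the mean at 6 months. Its difference was 0.14 (SE 0.062, 95% interval 0.018 to 0.27, adjusted p = 0.999), 0.16 in males and 0.12 in females, 0.14 among the arrays before number 46 and 0.17 among the others, and 0.11 without the pair. Its neighbours differed by 0.017. Eif4a1 was 0.290 ± 0.207 (n = 10) at 6 months and 0.135 ± 0.163 (n = 9) at 16 months, a difference of -0.15 (adjusted p = 0.999, neighbours at -0.091), so that its means over 6, 16 and 24 months AL were 0.29, 0.135 and 0.39.

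Between 6 and 24 months AL, 0 members passed (0% of probes, also with both blocks), 0 had an unadjusted p under 0.05 against 2.89%, and 0 met the study's selection against 1.5%. The smallest p values were those of Paip2, at 0.11 (95% interval -0.017 to 0.23), Eif3b, a scaffold subunit of eIF3, at 0.145 (-0.046 to 0.34), and Eif2d, at -0.078 (-0.18 to 0.026), each with an adjusted p of 1.00. For Paip2 all 10 old arrays lay above the mean at 6 months, and its neighbours differed by -0.019. The neighbours of Eif3b differed by 0.144 and those of Eif2d by 0.0041. Over the members the differences ran from -0.078 to 0.169, and the half-width of a 95% interval was 0.167 at the median.

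**Figure D4:**
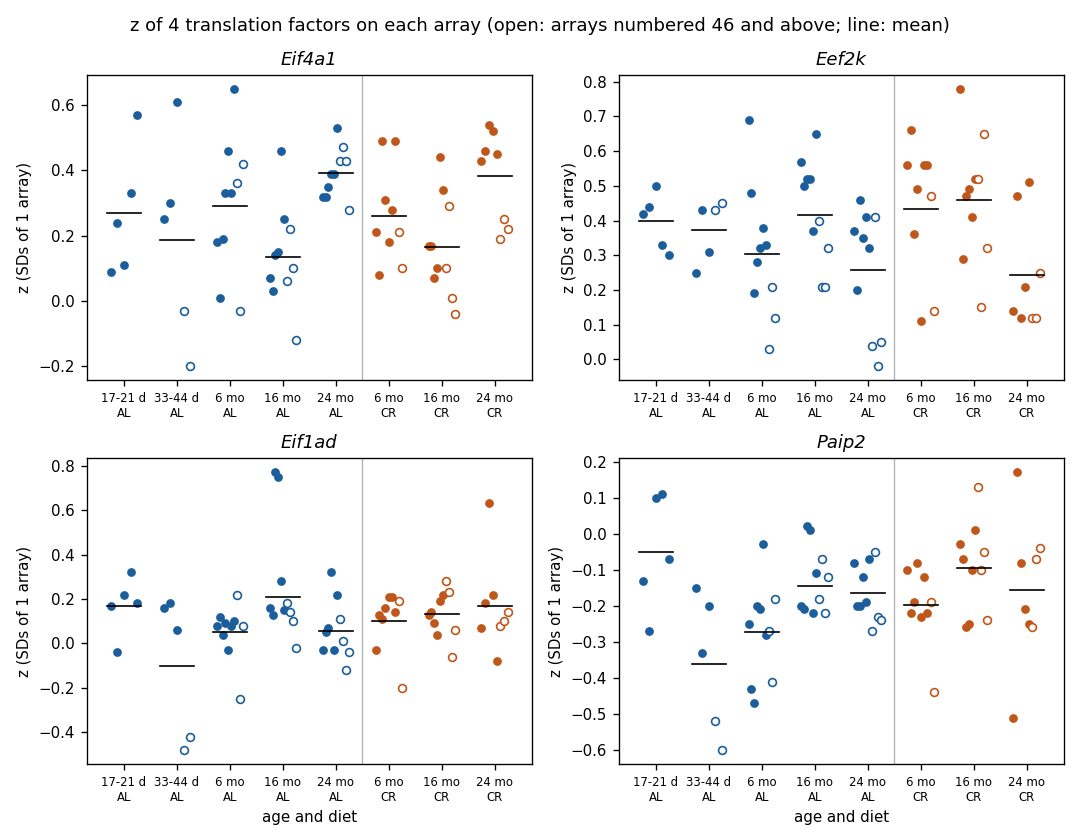
z of Eif4a1, Eef2k, Eif1ad and Paip2 (vertical axes, SDs of 1 array) on each array, by age and diet (horizontal axes), with filled points for arrays 1 to 45, open points for arrays 46 and above and a line at the group mean. Eif4a1 is lowest at 16 months in the adults of both diets, the 2 highest Eif1ad points at 16 months AL are the near-identical pair, and the lowest Paip2 points of 33-44 days are open.

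Caloric restriction left no member past the threshold at any age. At 6 months 0 passed (0% of probes, also with both blocks), 0 had an unadjusted p under 0.05 against 0.462%, and 0 met the study's selection against 0.343%. Eif2ak3, the eIF2 kinase of the endoplasmic reticulum, ran from -0.99 to -0.61 (median -0.89, n = 9) in CR and from -1.01 to -0.56 (median -0.695, n = 10) in AL mice, a difference of -0.12 (adjusted p = 1.00). Eef2k differed by 0.13 (0.027 in males, 0.22 in females) and Pabpn1, the nuclear poly(A)-binding protein, by -0.13 (0.040 in males, -0.30 in females), both at an adjusted p of 1.00. The neighbouring probes differed by -0.086 for Eif2ak3, 0.042 for Eef2k and -0.076 for Pabpn1. 

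At 16 months 0 members passed (0% of probes, also with both blocks), 0 had an unadjusted p under 0.05 against 1.03%, and 0 met the study's selection against 0.118%. Eif2d differed by -0.10 (95% interval -0.21 to 0.002), Eif1ad by -0.13 and Eef1g by -0.14, each with an adjusted p of 1.00, and without the near-identical pair the first 2 were -0.055 and -0.0080. Their neighbouring probes differed by -0.043 for Eif2d, -0.071 for Eif1ad and -0.032 for Eef1g. At 24 months 0 members passed (0% of probes, also with both blocks), 0 had an unadjusted p under 0.05 against 1.04%, and 0 met the study's selection against 0.485%. Eif4b, which helps the helicase eIF4A, differed by -0.12, with 1 AL male at 0.49 and the next AL array at 0.07, Eif2b2 by -0.11 and Eif1ad by 0.13, with adjusted p values of 1.00. Eif4b differed by -0.064 once 24 months AL male replicate 1 was left out, and without 24 months CR male replicate 2 that of Eif2b2 was -0.065 and that of Eif1ad 0.038. At 24 months the neighbouring probes differed by -0.042 for Eif4b, -0.074 for Eif2b2 and 0.011 for Eif1ad. Over the 3 ages together 0 members passed (0% of probes, also with both blocks), 0 had an unadjusted p under 0.05 against 0.710%, and 0 met the study's selection against 0.355%. Eif4b differed by -0.079, Eif3c, a core subunit of eIF3, by -0.069 and Eif2d by -0.033, which was -0.017 without the near-identical pair. The members ran from -0.095 to 0.062 with a median half-width of 0.100.

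Females and males differed by little over the adult ages and diets. Of the members 0 passed (0% of probes, also with both blocks), 0 had an unadjusted p under 0.05 against 0.971%, and 0 met the study's selection against 0.651%. The differences ran from -0.056 for Eif5a, the hypusine-carrying factor that helps elongation, to 0.080 for Eif3c, and Eif2d and Paip2 stood at 0.047 and 0.053, with adjusted p values of 1.00. Whether an age or diet difference itself differed between the sexes was tested in 12 comparisons. In each of them 0 members and 0 of all probes passed, and the smallest adjusted p of a member was 0.999. Counts with an unadjusted p under 0.05 reached at most 2 members. The share of all probes was not counted there, so these counts stand without a background.

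By role, the 6 elongation genes showed differences from -0.17 to 0.08 between 16 and 24 months AL (-0.145 to 0.046 without the near-identical pair). In CR they ran from -0.24 to 0.25, and Eef2k was at the low end in both diets. The high end in CR was Eef1akmt1, whose 24 months CR arrays ran from -1.11 to 0.96 (median -0.73, n = 8). Eef1a1 stayed between 0.43 and 0.52 as a mean in all 8 groups of age and diet, and Eef1b2 between -0.06 and -0.01. The 6 genes of eIF4 ran from -0.11 (Eif4g2) to 0.26 (Eif4a1) in AL and from -0.11 (Eif4g2) to 0.22 (Eif4a1) in CR, the 6 of eIF3 from -0.01 to 0.19 (from -0.20, at Eif3d, to 0.10 without the near-identical pair) and from -0.17 to 0.11 in CR, and the 2 eIF2 kinases from 0.03 to 0.06 and from 0.04 to 0.09. Among the eIF3 genes in CR the -0.17 was that of Eif3m, whose 16 months CR arrays ran from -1.08 to 0.52 (median -0.83, n = 10). Gspt1 stood at 0.091 and 0.14 on the used probe and at -0.13 and -0.048 on its other probe.

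Other genes of the pathway gave no passing gene either. Of 14 regulators of translation (among them Mtor, Rptor, Atf4, Fmr1 and Larp1) 0 passed in any comparison. In the juvenile comparison 5 of the 14 had an unadjusted p under 0.05. This is a larger share than the 14.0% of all probes and the 7 of 34 members, and the excess was not tested. The smallest p belonged to Eif2ak4 (GCN2), the eIF2 kinase that senses uncharged tRNA, which was 0.966 ± 0.181 (n = 5) at 33-44 days and 1.20 ± 0.089 (n = 10) at 6 months, a difference of 0.24 (adjusted p = 0.503, and 0.118 with both blocks). Of the 2 factors of mitochondrial translation and the 11 synthetases and their scaffold proteins 0 passed in any comparison. The smallest p values were those of Mtif2, at -0.19 (adjusted p = 0.357), and the isoleucyl-tRNA synthetase Iars, at -0.37 (adjusted p = 0.266), both between 17-21 and 33-44 days.

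Few markers of cell types could be read from this filter, so the check of the tissue is thin. Of the neuron list only Nefl, a neurofilament subunit, was measured, with group medians of the z between 0.16 and 0.38, and its difference between 24 and 16 months was -0.066 in AL (adjusted p = 0.999) and -0.19 in CR (adjusted p = 0.999). Of oligodendrocytes only Gpr37 was measured (group medians from -1.40 to -0.97), which differed by -0.35 between 17-21 and 33-44 days (adjusted p = 0.145). The summed z of 3 astrocyte genes had medians from 0.04 to 0.53, that of 3 microglia genes from 0.02 to 0.48 and that of 6 genes of meninges and vessels from 2.02 to 2.26. The smallest p values in these lists were those of Clu, at 0.31 from 33-44 days to 6 months (adjusted p = 0.732), C1qa, at -0.17 for CR against AL at 24 months (adjusted p = 1.00), and Dcn, at 0.43 between 17-21 and 33-44 days (adjusted p = 0.320). Of the choroid plexus list 0 genes were measured. From 16 to 24 months the median of Nefl was 0.31 and 0.16 in AL and 0.38 and 0.18 in CR, and the median of the blood sum was 0.91 and 1.30 in AL and 1.04 and 0.92 in CR. Their part in the values of Eif4a1 and Eef2k was not tested.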

How the data were processed

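The authors hybridised cDNA (33P-labelled, per the labels) to cDNA filters and standardised log intensities within an array, and the deposited score (z) is the only unit used. The sources used here give neither the log base nor the treatment of background. The 34 members, the other gene lists and the comparisons were chosen with earlier results of these data known. limma 3.58.1 in R 4.3.3 fitted 16 group means over 67 arrays, with two-sided p-values from eBayes adjusted by Benjamini-Hochberg over 8448 probes, and was tested on simulated data. For each comparison the passing members were named or, below 3, the 3 with the smallest p, and 1 gene from each other list where none passed. Further pairs were added after seeing values, to show a gene in both diets or at all ages. The neighbour correction subtracted the mean residual of probes up to 2 columns and 2 rows away in an inferred layout of 22 columns. Promoter windows were read with Python 3.11.15. Replicate numbers were given in accession order and pair no samples, and the run of array numbers served as the block. All 34 members matched the reference table by gene number.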

Additional observations from a re-analysis of the deposited data

Results flagged for a closer look

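Among 50 groups of a named gene at an age and diet, 7 held an array whose gap to the next was large for the spread of the group. Chance flags about 1 group in 20, but that rate is not a fair background for the 7. Most genes were named for a small p in these same data, which a single extreme array can help to give. The groups also share arrays, and all but those of 17-21 days mix both sides of the array-number split. Eif1ad accounted for 3 of the 7 groups. The near-identical pair at 16 months AL averaged 0.76 with the next array at 0.28. The array of 24 months CR male replicate 2 read 0.63, with the next at 0.22. That of 6 months AL male replicate 5 read -0.25, with the next at -0.03. That last mouse also gave the low Pabpn1 value of its group, -0.22 against 0.18 for the next. Its array lies on the later side of the array-number split, where Pabpn1 shifted by -0.25 and Eif1ad by -0.19. Both low values thus lie in the direction of the shift of their gene, and the part of the split in them was not tested. Eif3m read 0.38 in 33-44 days AL male replicate 1, the array numbered 1, with the next at -0.58. Eef1e1 read -0.03 in 17-21 days AL female replicate 2, with the next at -0.45. Eif4b read 0.49 in 24 months AL male replicate 1, with the next at 0.07.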

How the results depend on the processing

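Of 173 recounts of the passing members under other settings 168 stayed at 0. The exceptions were 1 member (Eif4a1) at 24 against 16 months AL with the array-number split and the array cycle as a replicate block together, and, under the selection of the study, 1 at 16 against 6 months AL, 2 at 24 against 16 months AL, 2 at 24 against 16 months CR and 1 for the difference between the diets in that change. Either block alone, the neighbour correction, quantile normalization, leaving out the near-identical arrays, centring on the median, the filter on mean z, fits on the compared groups or on part of the arrays, and the mean of all probes of a gene left the count at 0. Leaving out 1 array at a time gave 0 to 2 members between 17-21 and 33-44 days (Paip2, once with Eif2ak1), where 0.852% to 5.22% of all probes passed, and 0 in the other comparisons. None of the named differences changed sign when 1 array was left out, but beside those given above Eif3b at 24 against 6 months AL was 0.096 without 6 months AL female replicate 1, Eef1g for CR against AL at 16 months was -0.092 without 16 months CR male replicate 1, and Eif3c for CR against AL over the 3 ages was -0.039 without 24 months CR male replicate 1. Of 463 recomputed differences of named genes 6 changed sign: Eif3b at 24 against 6 months AL to -0.0036 (neighbour correction with both blocks), Eif4g2 at 24 against 16 months CR to 0.028 (mean of its probes), Eif5a between the sexes to 0.000415 (neighbour correction), and, on the arrays numbered 46 and above alone, Eif1ad for CR against AL at 16 months to 0.028 and Eif4b for CR against AL to 0.0050 at 24 months and 0.034 over the 3 ages. The cause was not tested. No signal over background could be read from z-scores.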
